A study of Mus musculus with 18 samples.

Results

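The choroid plexus genes described here are 9 genes of the epithelium that makes cerebrospinal fluid: Ttr, Kcnj13, Folr1, Clic6, Kl, Sulf1, Otx2, Aqp1 and Cldn2. They were chosen by name, as every probe set annotated to exactly 1 of them, out of 18193 genes read by single-gene probe sets in the series. They had 17 distinct probe sets: 10 of the 22626 on the cortex A chip (6 genes), 7 of the 22511 on the cortex B chip (4 genes) and all 17 among the 45037 of the array used for the samples titled rest (9 genes). A probe set is a group of short probes that read 1 transcript, and its signal is a brightness on a linear scale. Levels were compared between arrays of the same table and never between probe sets or tables.

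The samples came from mouse brain at postnatal day 7. In the conditional knockouts 1 copy of Brca1 was floxed around exons 5 to 13 and the other was a null carrying an inverted neo cassette at exon 11. Cre was driven by the nestin promoter, a promoter of neural progenitors. The wild types are named only as such, so whether they carried a floxed allele or Cre is not stated. Each genotype has 3 arrays in each of 3 tables (cortex A chip, cortex B chip, rest), 18 arrays in all, and what tissue the word rest covers is not given in the sources used here. Replicates are numbered in the titles, with nothing on whether they came from separate animals or litters, so p-values measure the spread between these arrays.

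The choroid plexus is a folded sheet of epithelial cells around leaky capillaries, which hangs in the ventricles of the brain. The epithelium derives from the dorsal midline of the neural tube, forms the barrier between blood and cerebrospinal fluid, and secretes the fluid by pumping ions with water following. Transthyretin, the product of Ttr and a carrier of thyroid hormone and of retinol-binding protein, is its most typical secreted protein. The lateral plexus lies against the inner wall of the cortex, so a dissected cortex may carry more or less of it. In bulk tissue, fewer cells of a type and less RNA per cell cannot be told apart.

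The labels were first checked. Brca1, the targeted gene, read 51.4, 44.0 and 61.4 in knockout cortex, against 38.0, 36.9 and 48.9 in wild-type cortex, and 118.5, 86.0 and 134.8 in knockout rest samples, against 101.8, 111.8 and 114.3 in wild-type rest samples. No fall of the transcript was detected (limma adjusted p = 0.496 and 0.978), and which exon the probe set reads is not given. The Y-linked Eif2s3y was listed on knockout replicates 1 and 2 and on no wild-type array in every table, so genotype is partly joined with sex. All cerebral cortex markers of the cortex chips were listed on at least 1 array (3 genes on the A chip, 2 on the B chip), and 7 of 10 thalamic and midbrain markers were blank on all A chip arrays, against 1 of 10 in the rest table. Only 3 of 8 cerebellar markers were blank on all A chip arrays, and 1 of 5 cerebral cortex markers on all rest arrays. In the rest table the cortex markers summed, with a blank taken as 0, to 416, 0 and 131 in knockouts and 87, 358 and 37 in wild types. Knockout replicate 1 was also the highest rest array for 5 of 6 choroid plexus genes listed on all rest arrays, and a link was not tested. Blank cells, for which no reason is given, made up a large part of every array, since 33.6% to 58% of the probe sets of a cortex array and 49.2% to 51.6% of those of a rest array had a signal. Of the arrays, 3 stood apart in several of the choroid plexus genes, namely cortex wild-type replicate 2, rest knockout replicate 3 and cortex knockout replicate 1. All were low for those genes, so several of the results that rest on these arrays are also given without them.

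Choroid plexus genes were present in every tissue sample, but not all of the 9 were. Ttr, the transthyretin gene, was listed on all 18 arrays. Cldn2, which encodes a claudin that makes the tight junctions of this epithelium leaky to cations, was blank for both of its probe sets on all 12 arrays that hold them. Otx2, a homeodomain transcription factor needed for the plexus to form, was blank on all 6 cortex arrays of the A chip and listed on all 6 rest arrays. Of the 17 probe sets, 4 were blank on every array of the rest table, namely both of Cldn2, 1 of Kl and 1 of Sulf1.

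In the cortex every tested choroid plexus probe set had a higher mean log2 signal in the knockouts than in the wild types, but only those of Kcnj13 and Sulf1 passed the test across all probe sets. On the B chip 2 of 4 tested probe sets rose and 0 fell, where 0.281% of the 7838 tested probe sets of that chip were called, 0.23% as higher and 0.051% as lower in knockout. On the A chip 0 of 4 passed, where 3.02% of 12065 were called, 2.3% as higher and 0.713% as lower. All 4 on each chip had an unadjusted limma p under 0.05, as had 15.7% of all probe sets tested on the A chip, against 7.39% for the B chip. The median log2 change was 0.85 for the 4 on the A chip and 1.16 for the 4 on the B chip, against -0.01 and 0.00 for all probe sets tested. Of the 4 on the A chip, 3 read the same gene, Ttr. The members were chosen with earlier results of these data in view, so the counts describe them and are no test of the group.

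Kcnj13 encodes an inwardly rectifying potassium channel of the apical, fluid-facing membrane of the epithelium. Its probe set read 443, 776 and 787 in knockout cortex (replicates 1 to 3), against 288, 197 and 322 in wild-type cortex. The groups did not overlap, and knockout replicate 1 lay nearest to the wild types. The means were 668.7 ± 196 in knockouts and 269.2 ± 64.8 in wild types (SD, n = 3 each), which is 1.25 on the log2(signal + 16) scale used for all changes here (SE 0.232, limma adjusted p = 0.0414), and 1.51 without knockout replicate 1. The call was narrow: the limma adjusted p was 0.112 without wild-type replicate 2, 0.127 without wild-type replicate 1, 0.065 without wild-type replicate 3, 0.17 without knockout replicate 2 and 0.123 without knockout replicate 3, with log2 changes between 1.05 and 1.38.

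Sulf1 encodes an extracellular sulfatase that trims sulfate groups from heparan sulfate and so changes how growth factors bind. Its probe set 1438200_at read 585, 671 and 626 in knockout cortex, against 273, 298 and 298 in wild-type cortex. The groups did not overlap, and the highest array exceeded the lowest by 1.15 times within knockouts and 1.09 times within wild types. The means were 627.3 ± 43 and 289.6 ± 14.4 (SD, n = 3 each), or 1.07 in log2 (SE 0.153, limma adjusted p = 0.00661). It stayed called in 14 of 15 alternatives, among them those without wild-type replicate 2 (1.09) and without knockout replicate 1 (1.12), and was lost without knockout replicate 2 (1.02, adjusted p = 0.0554). Another Sulf1 probe set read 196, 267 and 388 in the knockouts and was blank on all 3 wild-type arrays, so no fold change was computed.

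Ttr was higher in every knockout cortex than in every wild-type cortex on both chips, without passing the test as run here. On the B chip it read 17514, 23796 and 25656 in knockouts, against 13111, 3799 and 13518 in wild types. Wild-type replicate 2 stood far below the other wild-type arrays. The log2 change was 1.33 (SE 0.348, unadjusted p = 0.00189, limma adjusted p = 0.178), and without wild-type replicate 2 it was 0.73 (adjusted p = 0.112). With blanks set to a low value in all probe sets of the chip it was called (1.33, adjusted p = 6.36e-06). On the A chip the probe set 1451580_a_at read 5153, 5869 and 5746 in knockouts, against 4048, 1412 and 4655 in wild types. The log2 change was 0.90 (SE 0.336, limma adjusted p = 0.219), and 0.36 without wild-type replicate 2 (adjusted p = 0.0715). The others, 1454608_x_at and 1455913_x_at, had log2 changes of 0.60 and 0.79 (limma adjusted p = 0.312 and 0.224), and of 0.18 and 0.32 without that array. All 3 showed the same order of wild-type arrays, with replicate 2 lowest.

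**Figure D1:**
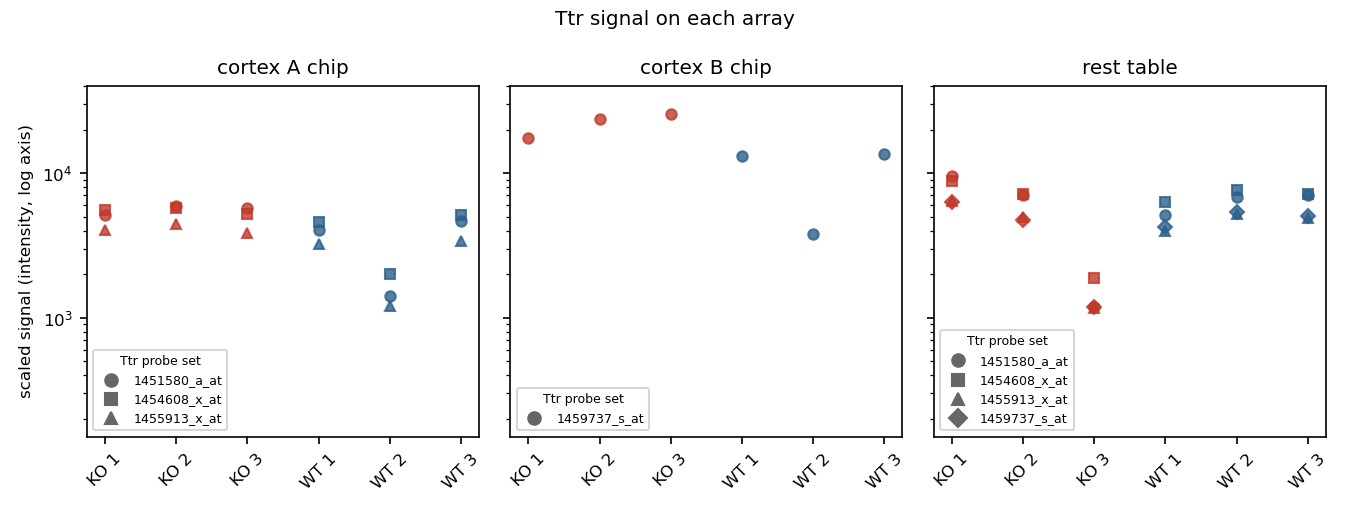
Scaled signal of each Ttr probe set (log axis) on every array of the 3 tables, knockout (red, KO) left of wild type (blue, WT), 1 point per array and symbols for probe sets. Wild-type replicate 2 is the lowest cortex array on both chips (3799 on the B chip) and knockout replicate 3 is the lowest rest array (1170 to 1886).

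Folr1, the folate receptor that carries folate across the plexus into the fluid, followed the same line. It read 95.3, 187 and 196 in knockout cortex, against 36.9, blank and 73.7 in wild-type cortex, where the blank is replicate 2. All listed knockout values lay above both listed wild-type values. The means were 159.4 ± 55.7 (SD, n = 3) and 55.3 ± 26 (SD, n = 2), or 1.29 in log2 (SE 0.301, limma adjusted p = 0.0539, in a fit with no value for wild-type replicate 2). Without knockout replicate 1 it was 1.59 (adjusted p = 0.0122).

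Clic6, a member of the chloride intracellular channel family, read 293, 615 and 488 in knockout cortex, against 175, blank and 244 in wild-type cortex, again blank on replicate 2. The log2 change was 1.05 (SE 0.275, limma adjusted p = 0.192, with no value for that array), and 1.34 without knockout replicate 1 (adjusted p = 0.0251). Its other probe set read 307, 501 and 461 in the knockouts and was blank on all wild-type arrays. On the B chip, then, 2 of 7 choroid plexus probe sets, 1 each of Clic6 and Sulf1, were listed on 3 knockout and 0 wild-type arrays. Of all probe sets on that chip 0.244% had this pattern and 0.0622% had the opposite one. On the A chip 0 of 10 choroid plexus probe sets and 0 of 17 in the rest table had it, against 0.287% and 0.262% of all probe sets, where the opposite was found for 0.19% and 0.178%.

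Aqp1, the water channel of the apical membrane, and Kl, the gene of Klotho, a co-receptor for a hormone of phosphate balance that is also shed into the fluid, were dim and could not be tested in the cortex. Aqp1 read 31.0, 103 and 91.4 in knockouts and was listed on wild-type replicate 3 alone, at 42.5. One Kl probe set was listed on knockout replicates 2 and 3 only, at 62.0 and 62.3, and the other on no cortex array. For both genes the listed signals of knockout replicates 2 and 3 were the highest of the table.

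**Figure D2:**
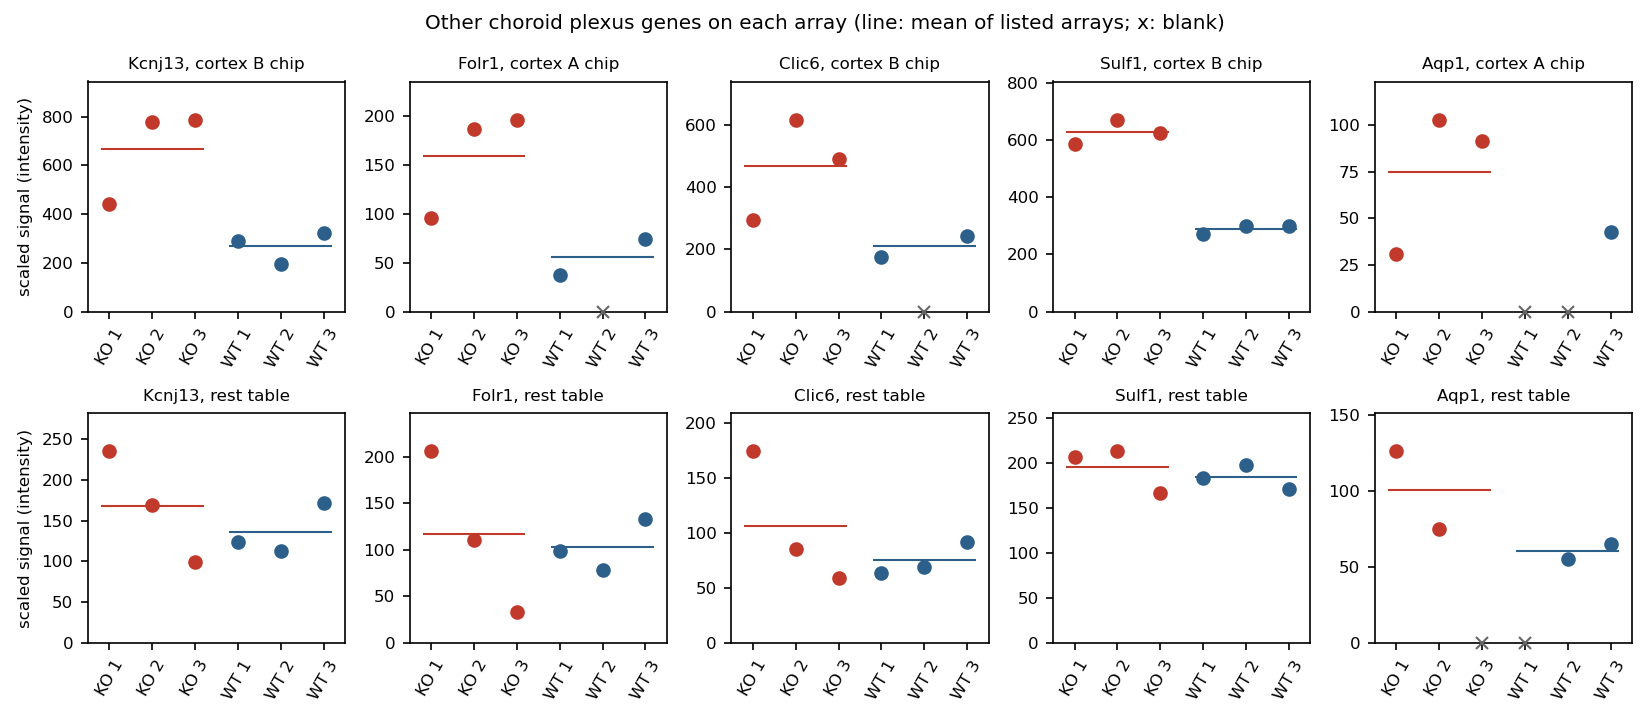
Scaled signal of 1 probe set each of Kcnj13, Folr1, Clic6, Sulf1 and Aqp1 on every array, cortex above and rest below, knockout (KO) left of wild type (WT); points are arrays, lines are means of the listed arrays and crosses are blanks. In cortex the knockouts of Kcnj13 (443 to 787) and Sulf1 (585 to 671) lie above all wild types, and in the rest table the genotypes overlap or cannot be ordered.

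Promoter sequence from RefSeq (GRCm38.p6, 250 bases before to 50 after a transcript start) was matched by symbol for 5 of the 9 genes, with 8 promoters. It is shown for Kcnj13, which rose in cortex, for Aqp1, and for the 1 of 4 Otx2 promoters that holds the recognition core of Otx-type homeodomain proteins. Capitals mark TAATC on either strand, which reads GATTA on the reverse. They mark the longer core TAATCC, which contains it and reads GGATTA on the reverse, where that is present. They also mark the TATA box, TATAAA, on the sense strand. The Kcnj13 window is chr1:87394680-87394979 (minus strand), that of Aqp1 chr6:55336049-55336348 (plus strand) and that of Otx2 chr14:48665060-48665359 (minus strand).
Kcnj13: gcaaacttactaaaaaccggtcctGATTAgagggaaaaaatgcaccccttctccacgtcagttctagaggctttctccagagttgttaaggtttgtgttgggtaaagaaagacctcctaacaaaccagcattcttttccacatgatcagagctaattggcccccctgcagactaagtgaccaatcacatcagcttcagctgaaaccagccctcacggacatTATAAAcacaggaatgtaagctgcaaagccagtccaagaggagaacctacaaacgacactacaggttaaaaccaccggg
Aqp1: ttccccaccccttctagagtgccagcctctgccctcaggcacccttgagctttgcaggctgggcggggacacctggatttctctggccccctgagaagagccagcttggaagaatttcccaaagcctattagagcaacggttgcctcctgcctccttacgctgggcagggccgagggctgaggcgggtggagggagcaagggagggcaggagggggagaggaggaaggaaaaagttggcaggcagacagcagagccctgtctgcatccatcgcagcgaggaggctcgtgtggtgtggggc
Otx2: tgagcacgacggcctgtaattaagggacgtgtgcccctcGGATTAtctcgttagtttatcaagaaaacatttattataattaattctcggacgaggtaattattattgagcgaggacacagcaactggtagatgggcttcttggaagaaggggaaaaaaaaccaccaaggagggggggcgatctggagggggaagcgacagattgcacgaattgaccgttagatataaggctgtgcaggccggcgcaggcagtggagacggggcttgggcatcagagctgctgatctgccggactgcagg
TAATCC was present in 1 of 8 member promoters, and in 7.06% of all 32851 promoters in the table. TAATC was present in 3 of 8 (Kcnj13, Kl and Otx2), and in 22% of all. TATAAA was present in 3 of 8 (Kcnj13, Cldn2 and another Otx2 promoter), and in 8.32% of all. A match describes these letters in this window and no binding was measured.

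In the samples titled rest no choroid plexus gene passed the test between genotypes, with Kl and Cldn2 not tested. Of 11 tested probe sets (7 genes) 0 passed, where 0.313% of 21407 were called (0.145% higher and 0.168% lower in knockout), and 0 had an unadjusted limma p under 0.05, as had 10.5% of all. The log2 change was above 0 for 5 and below 0 for 6, with a median of -0.05, against 0.00 for all probe sets tested. Of the 10 listed on all 6 arrays 0 had knockouts wholly above or wholly below the wild types, where 8.19% of all probe sets lay each way. In cortex the knockouts lay wholly above the wild types for all 3 such probe sets of the A chip, each of Ttr, and all 3 of the B chip, where 11% and 7.57% of all probe sets did so and 10.6% and 6.04% lay wholly below.

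The rest knockouts differed among themselves more than from the wild types. The Ttr probe set 1451580_a_at read 9493, 7063 and 1176 in knockouts, against 5149, 6852 and 7016 in wild types. Knockout replicate 1 was the highest array and replicate 3 by far the lowest, an 8.07-fold range within 1 genotype, against 1.36-fold among wild types. The log2 change was -0.55 (SE 0.614, limma adjusted p = 0.82), and the other 3 Ttr probe sets had values between -0.47 and -0.56. Without knockout replicate 3 the sign turned for all 4, to between 0.17 and 0.38 (limma adjusted p between 0.441 and 0.727). In a fit with a term for the Eif2s3y pattern, which sets knockout replicate 3 alone against the wild types, the 4 changes were between -1.88 and -2.40 (limma adjusted p between 0.00486 and 0.00527).

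Folr1, Kcnj13 and Clic6 placed the rest knockouts in the same order. Folr1 read 206, 110 and 33.8 in knockouts, against 98.6, 78.1 and 133 in wild types (log2 change -0.07, SE 0.444, limma adjusted p = 0.976; 0.51 without knockout replicate 3). Kcnj13 read 235, 169 and 99.2 in knockouts, against 124, 112 and 171 in wild types (log2 change 0.23, SE 0.265, adjusted p = 0.829; 0.53 without that array). The s_at probe set of Clic6 read 174, 85.3 and 59.2 in knockouts, against 64.1, 69.5 and 92.3 in wild types (log2 change 0.32, SE 0.301, adjusted p = 0.773; 0.62 without it). Replicate 1 was the highest and replicate 3 the lowest of all 6 arrays for each of these 3 genes.

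Of the remaining genes, Otx2 and the Sulf1 probe set called in cortex varied less among the rest knockouts. Otx2 read 225, 184 and 154 in knockouts, against 179, 115 and 143 in wild types, again with knockout replicate 1 highest (log2 change 0.34, SE 0.184, limma adjusted p = 0.581). The Sulf1 probe set called in cortex read 206, 213 and 166 in knockouts, against 184, 198 and 172 in wild types (log2 change 0.07, SE 0.133, adjusted p = 0.902). The other tested Sulf1 probe set, blank in wild-type cortex, read 104.5, 46.7 and 86 in knockouts, against 84, 90.7 and 63.5 in wild types. Its change was -0.05 (adjusted p = 0.971). Aqp1 read 126 and 75.1 in knockout replicates 1 and 2 and was blank in replicate 3, against blank, 55.5 and 65.2 in wild types (log2 change 0.58, SE 0.254, adjusted p = 0.485). Kl was listed at 87.5 and 39.8 on knockout replicates 1 and 2 and at 52.2 on wild-type replicate 3. For both Aqp1 and Kl, knockout replicate 1 was the highest listed array and knockout replicate 3 was blank.

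**Figure D3:**
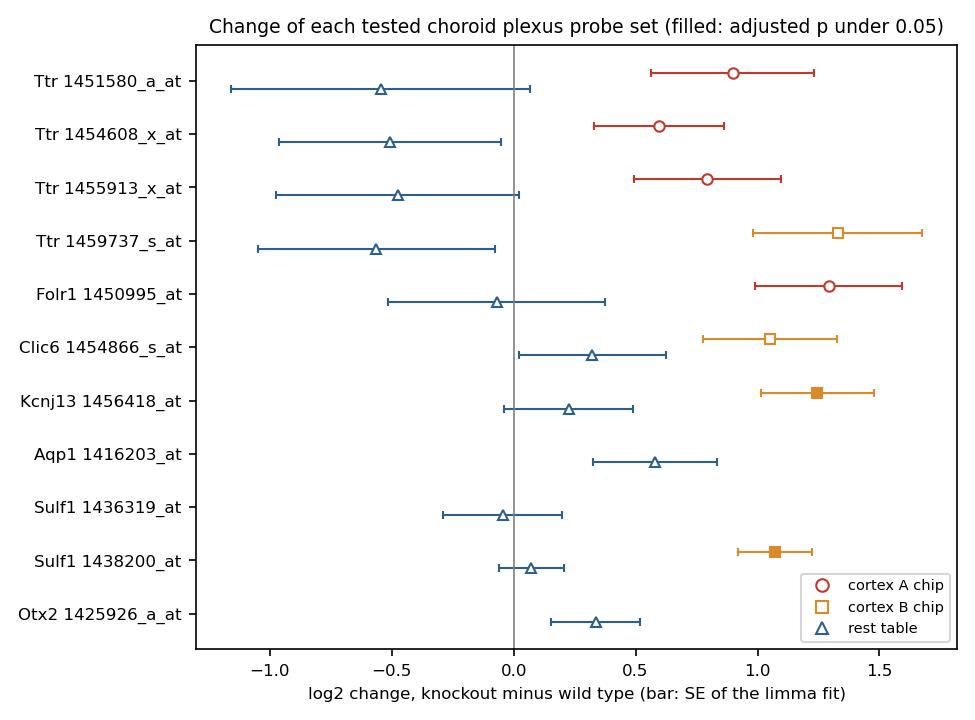
Log2 change of each tested choroid plexus probe set, knockout minus wild type, with the SE of the limma fit, for the cortex A chip (circles), cortex B chip (squares) and rest table (triangles); filled symbols passed at an adjusted p under 0.05. The cortex changes lie between 0.60 and 1.33 and those of the rest table between -0.56 and 0.58.

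The difference between the effects in rest and in cortex was tested as an interaction on the probe sets measured in both. Rest and cortex samples were read on different array types, so tissue and array type cannot be told apart in these differences. No choroid plexus probe set passed: 0 of 4 against the A chip, where 0.0502% of 11959 were called (0.00836% above 0 and 0.0418% below), and 0 of 4 against the B chip, where 0% of 6563 were called. The estimates were all below 0. For Sulf1 the effect was lower by 1.00 on the log2 scale in rest (SE 0.19, unadjusted p = 7.3e-05, limma adjusted p = 0.24). For Ttr on the B chip probe set the difference was -1.89 (SE 0.691, unadjusted p = 0.0145, adjusted p = 0.517), for Kcnj13 it was -1.02 (SE 0.387, unadjusted p = 0.0178, adjusted p = 0.529) and for Clic6 -0.73 (SE 0.458, adjusted p = 0.766). Those 3 of 4 with an unadjusted p under 0.05 compare with 7.94% of all probe sets. Against the A chip, Folr1 differed by -1.36 (SE 0.649, adjusted p = 0.485) and the 3 Ttr probe sets by -1.10 to -1.44 (adjusted p = 0.539 to 0.568), with 0 of 4 at an unadjusted p under 0.05, against 10.5% of all probe sets. Without cortex wild-type replicate 2 and rest knockout replicate 3, a setting chosen after seeing the data, the Ttr differences were 0.02 for 1451580_a_at, 0.00 for 1454608_x_at and -0.04 for 1455913_x_at on the A chip and -0.56 for the B chip probe set, with those of Sulf1 at -0.92, Folr1 at -0.78, Kcnj13 at -0.52 and Clic6 at -0.43 (limma adjusted p between 0.361 and 0.995).

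Individual arrays, chosen here after their values were seen, stood apart in several of the choroid plexus genes. Rest knockout replicate 3 had 0.142 to 0.236 times the mean of the other rest knockouts for the 4 Ttr probe sets, 0.214 for Folr1, 0.491 for Kcnj13 and 0.456 for the s_at probe set of Clic6. For each of these probe sets, at most 0.311% of 20590 had a lower ratio on that array. Otx2 had 0.75 there, and Sulf1 had 0.793 (1438200_at) and 1.14 (1436319_at). Further choroid plexus lists, described below, had median ratios of 0.971 (transport), 1 (secreted proteins, enzymes and receptors) and 0.773 (epithelial identity and structure). Cortex wild-type replicate 2 had 0.285 for Ttr on the B chip, 0.325 to 0.415 on the A chip and 0.645 for Kcnj13, but 1.04 for Sulf1. The further lists, in the same order, had medians of 0.94, 0.946 and 0.892 there on the A chip. For the few genes on the B chip they were 0.831, 0.544 and 0.574. Cortex knockout replicate 1 had 0.498 for Folr1, 0.319 for Aqp1, 0.567 for Kcnj13, 0.532 for the same Clic6 probe set and 0.708 for Ttr on the B chip, where 7.47% of probe sets had a lower ratio. Ttr was not low on the A chip, with 0.887, 1.02 and 0.974, and the Sulf1 probe sets had 0.902 (1438200_at) and 0.598 (1436319_at). The A chip and the B chip thus placed wild-type replicate 2 lowest in Ttr alike. The order of the numbered knockouts in rest was the exact reverse of that in cortex for 1 of 4 member probe sets on the A chip (Folr1, the others being Ttr) and 2 of 6 on the B chip (Ttr and Kcnj13, beside 2 each of Clic6 and Sulf1), and for 15.5% and 16.5% of all probe sets. Markers of brain regions also differed on rest knockout replicate 3. There 6 of 7 thalamic and midbrain genes were below the mean of the other knockouts (median ratio 0.775, Lhx9 0.509). Of the cerebellar genes 0 of 5 were below that mean (median 1.22, with Pcp2, a Purkinje cell gene, at 10.9). The part of these region markers in the choroid plexus values was not tested. Whether the same number in cortex and rest marks the same animal is not stated.

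Markers of the coverings of the brain and of vessel walls, which lie next to the plexus and form its stroma, were in part higher in the knockouts. All gene lists were chosen with earlier results of these data known, so their counts describe the listed genes and are no test of a cell type. Of 12 tested meningeal and mural genes on the A chip 10 rose and 0 fell, the 1 tested on the B chip (Tbx18) rose, and 7 of 16 rose in the rest table. Of all tested probe sets, 2.3% on the A chip, 0.23% on the B chip and 0.145% in the rest table were called higher in knockout. On the A chip 0.713% were called lower. Without wild-type replicate 2 of the rest samples 4 of 15 meningeal and mural genes rose, a setting chosen after seeing the data. On that array 14 of 15 such genes lay below the mean of the other wild types (median ratio 0.675), and 6 of 6 cerebellar genes did. The summed signal of the 18 such genes, with a blank taken as 0, was 13799 to 16488 in knockout cortex and 6245 to 6796 in wild-type cortex on the A chip, and 16961 to 19763 in knockout and 10004 (replicate 2) to 16116 in wild-type rest samples. None of the 18 was blank on all arrays of these tables. Their part in the choroid plexus values was not tested. On cortex wild-type replicate 2 the sum was 6518, between the other wild types. Even so, 8 of 10 of these genes on the A chip lay below the mean of the other wild types (median ratio 0.887). On rest knockout replicate 3 the sum was 19755, while Ttr was lowest there. On cortex knockout replicate 1 it was 16488, the highest, while Folr1, Kcnj13 and Clic6 were lowest among the knockouts.

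Other neighbouring cell types were read in the same way. The summed signal of 10 endothelial genes on the A chip was 2124 to 2430 in knockout and 1564 to 1630 in wild-type cortex, with Pecam1 blank throughout. Of 8 tested there 2 rose, Cldn5 and Cdh5 (limma adjusted p = 0.0133 and 0.0198), with 6 at an unadjusted p under 0.05. Of all probe sets tested on the A chip, 2.3% were called higher and 15.7% had an unadjusted limma p under 0.05. In the rest samples 0 of 9 endothelial genes passed and 1 had an unadjusted p under 0.05, against 10.5% of all probe sets tested. The summed signal there was 3301 to 3649 in knockouts and 2858 to 3499 in wild types. That of 6 ependymal and ciliated cell genes, markers of the cells that line the ventricles, was 101 to 289 in knockout and 0 to 149 in wild-type cortex, lowest on replicate 1 of the knockouts, with all 6 blank on replicate 2 of the wild types. On the B chip the sum of 6 such genes was 207, 499 and 234 in knockouts and 104, 183 and 257 in wild types, so that wild-type replicate 2 lay between the others. Spag6l and Rsph1 were blank on all A chip arrays. In the rest table the ependymal sum of 12 genes was 968 to 1191 in knockouts and 792 to 1264 in wild types. Their part in the choroid plexus values was not tested. Of 8 pineal gland and pigment epithelium genes, tissues that also use Otx2 or Ttr, 5 were blank on all rest arrays and 6 on all A chip arrays.

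**Figure D4:**
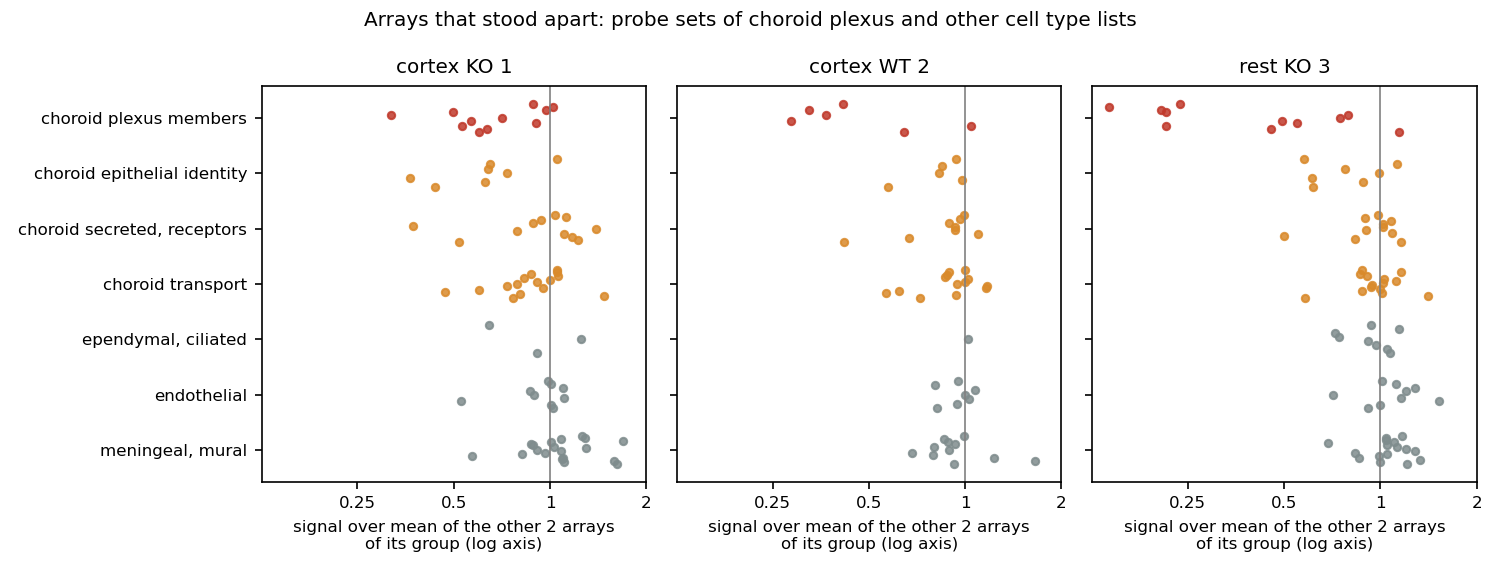
Signal on cortex knockout replicate 1 (KO 1), cortex wild-type replicate 2 (WT 2) and rest knockout replicate 3 (KO 3) over the mean of the other 2 arrays of the same group (log axis), 1 point per probe set, by gene list; 1 means equal. Choroid plexus members reach down to 0.319, 0.285 and 0.142, while most meningeal and mural genes lie near or above 1 on both knockout arrays (medians 1.08 and 1.05) and somewhat below 1 on the wild-type array (median 0.887 on the A chip). Medians of the further choroid lists (identity, secreted, transport) were 0.651, 1.04 and 0.892 on cortex KO 1 (A chip). They were 0.892, 0.946 and 0.94 on cortex WT 2 (A chip) and 0.773, 1 and 0.971 on rest KO 3.

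Other genes of the plexus, from 3 lists, changed in part. For comparison, 3.02% of all tested probe sets were called on the A chip, 0.281% on the B chip and 0.313% in the rest table. An unadjusted limma p under 0.05 was found for 15.7%, 7.39% and 10.5% of all, in the same order. Of the genes of ion, water and solute transport, 0 of 11 tested passed on the A chip (4 at an unadjusted limma p under 0.05, median log2 change 0.11), 1 of 3 rose on the B chip and 0 of 16 passed in the rest table (3 unadjusted). The gene that rose was Slc13a4, a sulfate transporter, at 1200, 932 and 704 in knockout cortex, against 461, 345 and 492 in wild-type cortex (log2 change 1.08, SE 0.196, limma adjusted p = 0.0381). Here knockout replicate 1 was the highest, at 1.47 times the mean of the other knockouts, the opposite of Kcnj13 and Clic6. On the A chip the lowest p belonged to Slco1c1, a thyroid hormone transporter (log2 change 0.35, adjusted p = 0.0951), Slc29a4 (-0.40, 0.155), the carbonic anhydrase gene Car12 (0.62, 0.19) and the copper transporter gene Slc31a1 (0.35, 0.247). In the rest table they belonged to Slc12a2, the sodium-potassium-chloride cotransporter (-0.36, adjusted p = 0.154), Slc2a12 (0.47, 0.302), Car2 (0.25, 0.331) and Slc4a10 (0.18, 0.569).

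Of the secreted proteins, enzymes and receptors, 2 of 9 tested rose on the A chip (median log2 change 0.29), 0 of 2 passed on the B chip (1 unadjusted) and 0 of 12 in the rest table (5 unadjusted, median -0.07). Of all tested probe sets 2.3% were called higher on the A chip. An unadjusted limma p under 0.05 was found for 7.39% of all on the B chip and 10.5% in the rest table. Igf2, a growth factor made by plexus and meninges, read 2358, 2247 and 1977 in knockout cortex, against 1097, 958 and 1062 in wild-type cortex (log2 change 1.07, SE 0.0846, adjusted p = 7.67e-05 with limma). Igfbp2, which binds such factors, read 1462, 1687 and 1615, against 973, 929.6 and 1034 (log2 change 0.69, SE 0.0781, adjusted p = 0.000839). Neither gene set cortex wild-type replicate 2 apart, with ratios to the other wild types of 0.888 and 0.926. Ecrg4, a secreted peptide precursor abundant in the plexus, read 288, 588 and 517.5 in knockouts, against 187, 77.2 and 182 in wild types on the B chip (log2 change 1.57, SE 0.307, adjusted p = 0.0521). As for Folr1 and Clic6, the lowest knockout was replicate 1, and wild-type replicate 2, where those were blank, was the lowest wild type. The ratios were 0.521 for knockout replicate 1 and 0.419 for wild-type replicate 2. The serotonin receptor gene Htr2c had a log2 change of 0.23 (adjusted p = 0.871) on the B chip. In the rest table Igfbp2 (0.37, adjusted p = 0.11), Igf2 (0.59, 0.323), Clu (-0.21, 0.339) and Htr2c (0.22, 0.342) had the lowest p.

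Of the genes of epithelial identity and structure 0 of 6 passed on the A chip (1 at an unadjusted limma p under 0.05, median log2 change 0.18), 0 of 2 on the B chip (1 unadjusted) and 0 of 8 in the rest table (1 unadjusted, median 0.21). The shares of all tested probe sets at an unadjusted limma p under 0.05 were 15.7%, 7.39% and 10.5%, in the same order. Col8a2, a short-chain collagen, read 158, 272 and 233 in knockout cortex, against 59.2, 57.5 and 141 in wild-type cortex (log2 change 1.28, SE 0.3, limma adjusted p = 0.114), and Col8a1 had a change of 0.18 (adjusted p = 0.973). Calml4, a calmodulin-like protein, had a log2 change of 0.87 on the A chip (adjusted p = 0.232) with a ratio of 0.364 for knockout replicate 1, and Spint2, Col9a3 and Cab39l had changes of 0.36, -0.26 and 0.22 (adjusted p = 0.434 to 0.612). In the rest table Col9a3 (-0.47, adjusted p = 0.135), Mdfic (0.30, 0.518), Msx1 (0.46, 0.58) and Spint2 (0.32, 0.659) had the lowest p. Lmx1a and Cldn3 were blank on all arrays of the A chip and of the rest table.

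Transcripts whose signals ran most like Ttr were looked for among probe sets listed on all 12 arrays of a cortex chip and the rest table, which leaves out Folr1, Clic6, Aqp1, Kl, Otx2 and Cldn2 because of blanks. Likeness was the lower of the Pearson correlations with Ttr over the 6 arrays of a cortex chip and over the 6 rest arrays. It is a description over few arrays of both genotypes, so differences between genotypes are part of it. Among 10886 probe sets of the A chip the closest genes were Ercc1, Amz2, Ciao2b, Lyrm1, Zfhx3, Ap1s1, Fxyd5 and Ndn (0.754 to 0.895), and among 5282 of the B chip Foxp2, Naa40, Prkch, Foxk2, Rnaseh2a, Stimate, Pgr and Agpat4 (0.739 to 0.916). Of each 8, 0 were on a further choroid plexus list. The choroid plexus genes described here were left out of the naming beforehand. How many genes of the further lists were among those probe sets was not counted, so the 0 cannot be weighed. Kcnj13 had correlations of 0.895 in cortex and 0.667 in rest, and Sulf1 of 0.714 and 0.666. For 0.435% and 0.473% of the probe sets the lower correlation was higher than that of Kcnj13 and of Sulf1.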

How the data were processed

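RNA was measured on Affymetrix arrays after TRIZOL extraction, per the labels' protocols. Each deposited value is a linear intensity, which the authors computed with MAS5 per the submitters' processing notes; version, settings and the reason for blank cells are not given in the sources used here. Without the control probe sets, arrays of a table were brought to the same 2% trimmed mean over the probe sets that all 6 list (factors 0.9477 to 1.059), and log2(signal + 16) was taken. Testing required a signal on 2 or more arrays of both genotypes. Knockout was compared with wild type by limma 3.58.1 (R 4.3.3; lmFit, eBayes with an intensity trend), and the effect in rest with that in cortex as an interaction on shared probe sets; the Benjamini-Hochberg adjustment ran over all probe sets tested, and calls were made under 0.05. The number of arrays limits the precision.

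Symbols came from the array annotation, updated by gene identifier from RefSeq. The 9 genes and all lists were chosen with earlier results of these data known. Up to 4 genes of each further list are named per table, called ones by size of change and otherwise by lowest p. Single arrays and the genes given by array ratio were picked after their values were seen. Same-numbered knockout and wild-type arrays deviated together weakly or not at all (correlations -0.00876 to 0.0189 on the A chip, 0.0721 to 0.159 on the B chip, 0.0227 to 0.251 in the rest table), not over 0.1 for every pair of any table, so the replicate number was not used as a block.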

Additional observations from a re-analysis of the deposited data

How the results depend on the processing

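The alternatives were no rescaling, quantile normalization, offsets of 1 and 64, only probe sets listed on all arrays, blanks set to the 1st percentile of an array, no variance trend, a replicate block, a sex-marker term and leaving out each array; the cause of a change was not tested unless stated. Choroid plexus probe sets called on the A chip numbered 1 in place of 0 with the replicate block (Folr1, adjusted p = 0.014) and 0 to 1 with an array left out. On the B chip they numbered 6 with blanks filled (also Ttr, adjusted p = 6.36e-06, Clic6 1454866_s_at, adjusted p = 0.000837, and the 2 probe sets blank in wild types), 1 with no variance trend, with the replicate block and with the sex-marker term in place of 2, and 0 to 3 with an array left out. In the rest table they numbered 4 with the sex-marker term (Ttr) in place of 0, and 0 in all fits with an array left out. The differences between rest and cortex gave 0 in all 21 alternatives on each chip. All probe sets called numbered 82 with the sex-marker term on the A chip in place of 364 (185 to 330 with an array left out). On the B chip they numbered 156 with blanks filled, 9 with no variance trend and 12 with the replicate block in place of 22 (9 to 25). In the rest table they numbered 132 with blanks filled, 11 with no variance trend, 142 with the replicate block and 10 with the sex-marker term in place of 67 (13 to 69). The Kcnj13 call was also lost with no variance trend (adjusted p = 0.17), the replicate block (0.0876) and the sex-marker term (0.0636). Same-numbered arrays share only a number, so a call lost under the block is not read as a weaker effect.

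Signs turned only in the rest table and in the differences from the A chip. With the sex-marker term log2 changes were 0.11 (Sulf1 1436319_at), -0.13 (Sulf1 1438200_at), -0.27 (Clic6) and -0.38 (Kcnj13), and with an offset of 64 that of Folr1 was 0.00405. With an array left out they ranged from -1.12 to 0.38 (Ttr 1451580_a_at), -0.92 to 0.18 (1454608_x_at), -0.94 to 0.28 (1455913_x_at), -1.03 to 0.17 (1459737_s_at), -0.56 to 0.51 (Folr1), -0.0530 to 0.62 (Clic6), -0.0340 to 0.53 (Kcnj13) and -0.24 to 0.23 (Sulf1 1436319_at). Without both arrays lowest in Ttr, an alternative chosen after seeing the data, the Ttr differences between rest and the A chip were 0.0212 (1451580_a_at) and 0.00417 (1454608_x_at), that of 1455913_x_at was -0.04 and that of the B chip probe set stayed at -0.56. In cortex no sign turned.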
